A study of Mus musculus with 9 samples.

Results

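The 10 genes described here encode some of the subunits of the transcription factor NF-κB and proteins grouped here as its inhibitors. They were chosen by name: the subunits Nfkb1, Nfkb2, Rel and Relb (4 genes), the classical IκB genes Nfkbia, Nfkbib and Nfkbie (3 genes), the nuclear IκB genes Nfkbid and Nfkbiz (2 genes) and Tnfaip3 (1 gene), which encodes A20. These are 10 of the 53801 genes in the count table, and all 10 were among the 12538 protein-coding genes that passed the filter on low counts. Their levels were compared across the 4 treatment groups, subunits against inhibitors.

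RNA was sequenced from CD11b+ cells sorted from the brain hemisphere that carried a GL261 glioma, in 9 libraries. According to the study, these cells comprise microglia, monocytes and macrophages, border-associated macrophages, granulocytes, some dendritic cells and NK cells. GL261 is a mouse glioma line, used here with luciferase and tdTomato reporters and implanted in male C57BL/6J mice aged 10 to 12 weeks. The CTR group (2 libraries) received the vehicle, saline. The OAT-1746 group (2 libraries) received this arginase inhibitor by gavage at 50 mg/kg, 2 times a day from day 1. The anti-PD-1 group (2 libraries) received the checkpoint antibody by intraperitoneal injection on days 8, 10, 12 and 14, each time 2.5 mg/kg, and the COMB group (3 libraries) received both agents on these schedules. The day of collection is given as 28 in the study's methods and as 21 in a legend. The study calls the libraries biological replicates, but whether each came from 1 mouse or from a pool was not stated, so p-values measure only the spread between these libraries.

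The libraries held 13048075 to 18796479 counts, and levels are given as CPM, counts scaled to a common depth with factors from the trimmed mean of M values (TMM). Genes whose adjusted p over all 12538 tested genes was below 0.05 in the quasi-likelihood fit of edgeR are said to be called. For replicate 2 of anti-PD-1 the treatment label gives a different antibody target, and its title decided the group. OAT-1746 replicate 2 stood apart from the rest: over genes, Pearson's r of its log2 CPM with each other library lay between 0.911 and 0.956, whereas pairs of the other 8 had 0.960 to 0.989, and the genes entering r are not independent. The members' fold changes and calls that involve the OAT-1746 group are therefore given with and without this library, and where 1 library was left in a group it was assumed to vary like the others. Markers of the sorted cells were present in every library. Itgam, which encodes CD11b, had 302 and 369.5 CPM in CTR, 445 and 446 in OAT-1746, 294 and 327 in anti-PD-1 and 366, 307 and 328 in COMB. The 5 markers of the sorted cells (Itgam, Ptprc, Csf1r, Aif1 and Cd68) summed to 8638 to 13204 CPM, although the sort used CD11b alone. Of these, 1 (Aif1) was called higher in COMB than in OAT-1746, but not without OAT-1746 replicate 2.

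NF-κB proteins act as pairs of subunits that bind DNA at κB motifs and switch on genes of inflammation, survival and stress. In resting cells the classical IκB proteins hold these pairs in the cytoplasm, until IκB kinase marks the IκB for destruction and the pairs enter the nucleus. Several inhibitors, among them IκBα and A20, are themselves products of NF-κB target genes, which gives the pathway a negative feedback. In microglia and macrophages the pathway is best known for the response to microbial products and to cytokines such as TNF.

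Per kb of exon, Nfkbia had the highest level of the 10 genes in each library, from 289 to 657 CPM per kb. In CTR, the group means ran from 321 CPM per kb for Nfkbia through 50.04 for Nfkbiz and 46.4 for Tnfaip3 to 7.27 for Rel, the lowest. Summed per kb, the 4 subunits had 63.9 to 89.4 CPM per kb in all 9 libraries. The 6 inhibitors had 472 and 517 CPM per kb in CTR, 862 and 1092 in OAT-1746, 655 and 708 in anti-PD-1, and 394, 529 and 494 in COMB. The summed level of the inhibitors was thus highest in both OAT-1746 libraries, whereas that of the subunits varied less than 1.5-fold.

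**Figure D1:**
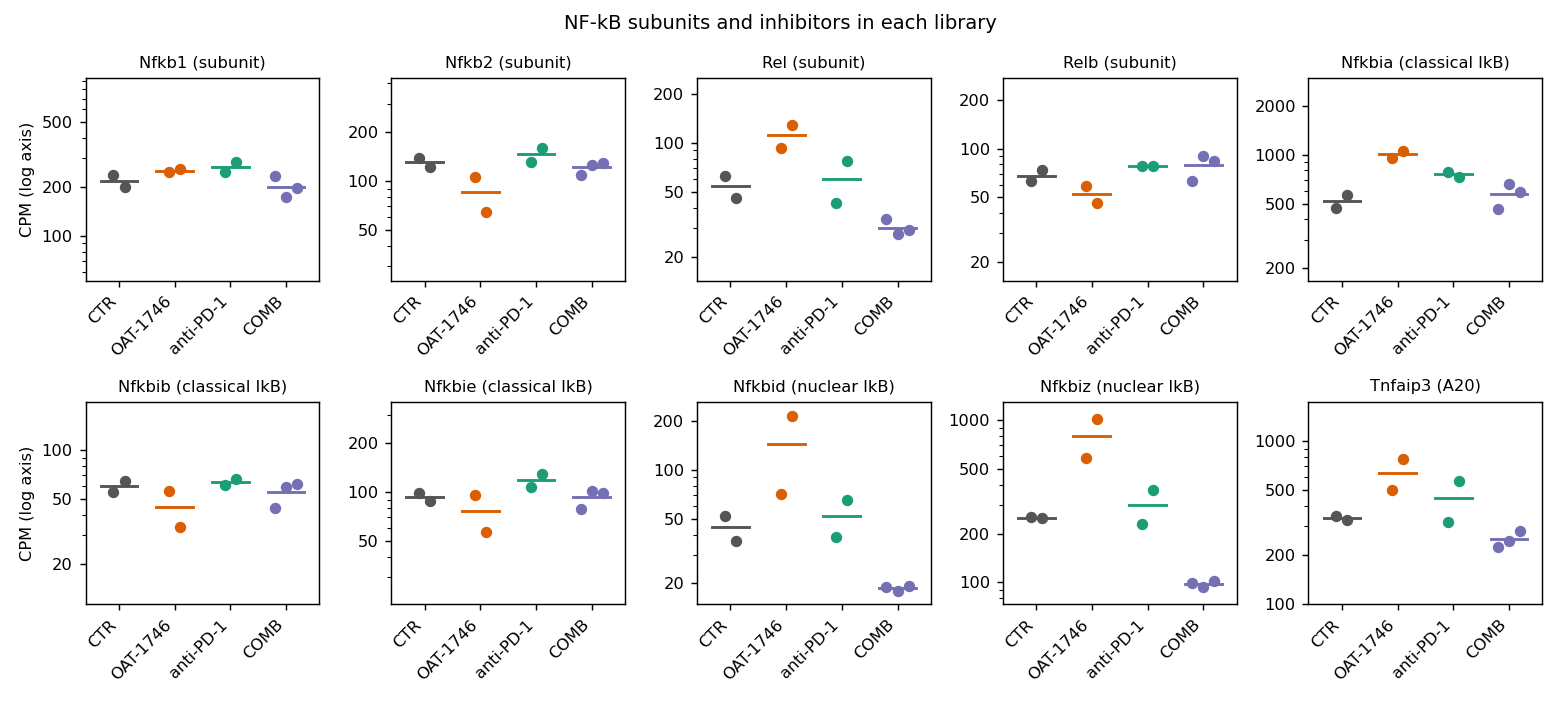
Levels of the 4 subunits, 5 IκB genes and A20 in each library, in CPM on a log axis of equal span in every panel; points are libraries and lines are group means. Rel, Nfkbid, Nfkbiz and Tnfaip3 are lowest in the 3 COMB libraries, and Rel, Nfkbia, Nfkbid and Nfkbiz are highest in the 2 OAT-1746 libraries.

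Among the subunits, Rel set itself apart. Rel (c-Rel; ENSMUSG00000020275, chr11:23736847-23770970 of GRCm38, minus strand) encodes a subunit with its own transactivation domain that is abundant in lymphoid and myeloid cells. It had 62.9 and 45.6 CPM in CTR, 93.5 and 129 in OAT-1746, 42.7 and 77.6 in anti-PD-1 and 33.97, 27.4 and 29.1 in COMB. All 3 COMB libraries lay below the other 6, and both OAT-1746 libraries lay above the other 7, while the CTR and anti-PD-1 libraries overlapped. The mean was 111 ± 25.4 CPM (SD, n = 2) in OAT-1746 and 30.1 ± 3.42 CPM (SD, n = 3) in COMB. The log2 fold change between COMB and OAT-1746 was -1.89 (standard error 0.26, 3.70-fold lower in COMB, adjusted p = 0.0143 in edgeR). It was -1.62 (adjusted p = 0.0670) and no longer called without OAT-1746 replicate 2. In these bulk samples, fewer cells that express a gene and less RNA per cell cannot be told apart.

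The other 3 subunits varied less. Nfkb1 (ENSMUSG00000028163, chr3:135584655-135691547, minus strand) encodes a precursor that is cut to a subunit without a transactivation domain. It had 236 and 201 CPM in CTR, 247 and 257 in OAT-1746, 246 and 285 in anti-PD-1 and 232, 173 and 197 in COMB, and the COMB libraries overlapped those of CTR. Its log2 fold change between COMB and OAT-1746 was -0.33 (standard error 0.17, adjusted p = 0.182 in edgeR), and -0.29 without OAT-1746 replicate 2. Nfkb2 (ENSMUSG00000025225, chr19:46304320-46312385, plus strand) encodes the related precursor of the non-canonical pathway, and Relb (ENSMUSG00000002983, chr7:19606217-19629438, minus strand) its usual partner. Nfkb2 had 139.5 and 122 CPM in CTR, 106 and 64.8 in OAT-1746, 131 and 161 in anti-PD-1 and 109, 125 and 130.2 in COMB. Relb had 63.0 and 73.4 CPM in CTR, 58.7 and 46.0 in OAT-1746, 78.2 and 78.3 in anti-PD-1 and 63.3, 90.1 and 83.8 in COMB. Unlike Rel, Nfkb2 and Relb were lowest in OAT-1746, and for both genes all COMB libraries lay above both OAT-1746 libraries (2 of 10 members, against 25% of the tested genes). Their log2 fold changes between COMB and OAT-1746 were 0.51 (standard error 0.22, adjusted p = 0.120 in edgeR) and 0.59 (standard error 0.18, adjusted p = 0.0567), and neither was called. They were 0.21 and 0.44 without OAT-1746 replicate 2. Relb was called higher in COMB in 6 of 18 alternatives: with DESeq2 (adjusted p = 0.0223), with limma voom (0.0337), with each of 2 other filters on low counts, without OAT-1746 replicate 1 and without COMB replicate 1.

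Of the classical IκB genes, only Nfkbia was called in the comparison of COMB with OAT-1746. Nfkbia (ENSMUSG00000021025, chr12:55489410-55492647, minus strand) encodes IκBα, the inhibitor that is degraded and made anew within an NF-κB response. It had 472 and 561 CPM in CTR, 949.9 and 1058 in OAT-1746, 781 and 732 in anti-PD-1 and 466, 658 and 589 in COMB. The order of the group means was OAT-1746, anti-PD-1, COMB and CTR, and only COMB and CTR overlapped between neighbours. From OAT-1746 to COMB, Nfkbia had a log2 fold change of -0.81 (1.76-fold lower, standard error 0.18, adjusted p = 0.0287 in edgeR), and -0.72 (adjusted p = 0.160) without OAT-1746 replicate 2. COMB did not lie below CTR for this gene, unlike for Rel: the log2 fold change of COMB against CTR was 0.14 (standard error 0.18, adjusted p = 0.879).

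Nfkbib (ENSMUSG00000030595, chr7:28758251-28767512, minus strand) and Nfkbie (ENSMUSG00000023947, chr17:45555703-45563169, plus strand) encode IκBβ and IκBε, which hold NF-κB in the cytoplasm in the same manner. Nfkbib ranged from 33.5 to 66.4 CPM and Nfkbie from 56.5 to 129 CPM over the 9 libraries. Both had their lowest value in OAT-1746 replicate 2, while replicate 1 of that group (55.9 and 95.9 CPM) lay within the range of the COMB libraries. The log2 fold changes between COMB and OAT-1746 were 0.30 and 0.29 (adjusted p = 0.369 and 0.372 in edgeR), and -0.01 and -0.03 without that library. Nfkbib overlaps Sirt2 on the opposite strand, and the reads were counted by strand.

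The nuclear IκB genes had the largest differences of the 10. Their products, IκBNS from Nfkbid and IκBζ from Nfkbiz, bind NF-κB subunits in the nucleus and modulate, up or down, which target genes are transcribed. They therefore differ from the classical inhibitors in more than location. Nfkbiz (ENSMUSG00000035356, chr16:55811375-55838899, minus strand) had 253 and 249.5 CPM in CTR, 580.4 and 1013 in OAT-1746, 230.4 and 368 in anti-PD-1 and 98.6, 93.2 and 103 in COMB. Each COMB library was below the other 6 and each OAT-1746 library above the other 7, with CTR and anti-PD-1 overlapping between them. The mean was 797 ± 306 CPM (SD, n = 2) in OAT-1746 and 98.2 ± 4.76 CPM (SD, n = 3) in COMB. The log2 fold change of COMB against OAT-1746 was -3.02 (standard error 0.26, 8.12-fold lower, adjusted p = 0.00322 in edgeR), and -2.55 (adjusted p = 0.00284) without OAT-1746 replicate 2.

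Nfkbid (ENSMUSG00000036931, chr7:30421732-30428746, plus strand) had 52.3 and 36.8 CPM in CTR, 71.4 and 216 in OAT-1746, 38.8 and 65.1 in anti-PD-1 and 18.99, 17.9 and 19.2 in COMB. The 3 COMB libraries lay within 1.5 CPM of each other and below the other 6, whereas the OAT-1746 libraries differed from each other more than 3-fold. The log2 fold change of COMB against OAT-1746 was -2.94 (standard error 0.41, 7.69-fold lower, adjusted p = 0.0143 in edgeR). Without OAT-1746 replicate 2, which had the highest level, it was -1.92 and still called (adjusted p = 0.0236).

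Tnfaip3 (ENSMUSG00000019850, chr10:19000910-19015657, minus strand) encodes A20, a ubiquitin-editing enzyme that ends signalling upstream of IκB kinase. It had 346 and 325 CPM in CTR, 499 and 772 in OAT-1746, 319 and 570.1 in anti-PD-1 and 222, 241 and 281 in COMB. COMB was below the other 6 libraries, and OAT-1746 overlapped anti-PD-1, whose replicates differed. The log2 fold change of COMB against OAT-1746 was -1.36 (standard error 0.26, 2.56-fold lower, adjusted p = 0.0239 in edgeR), and -0.996 (adjusted p = 0.145) without OAT-1746 replicate 2.

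Read over the 10 genes, the comparison of COMB with OAT-1746, which asks what the antibody adds to the inhibitor, gave 5 calls, all lower in COMB: 1 of 4 subunits (Rel) and 4 of 6 inhibitors (Nfkbia, Nfkbid, Nfkbiz and Tnfaip3). Of all tested genes, 8.94% were called lower and 15.8% in either direction. The median log2 fold change was 0.09 over the subunits and -1.09 over the inhibitors, beside 0.00 over all tested genes. Without OAT-1746 replicate 2 these medians were -0.04, -0.86 and 0.02. In 4 of 10 members (Rel, Nfkbid, Nfkbiz and Tnfaip3) the COMB libraries lay below all 6 others, as in 3.34% of the tested genes. In 4 of 10 (Rel, Nfkbia, Nfkbid and Nfkbiz) the OAT-1746 libraries lay above all 7 others, as in 17.5%. The count of 5 rested on single libraries: it was 2 without OAT-1746 replicate 2 (Nfkbid and Nfkbiz; 0.21% of the tested genes), 9 without OAT-1746 replicate 1 (the 5 lower, and Nfkb2, Relb, Nfkbib and Nfkbie higher; 31.4%), 1 (Nfkbiz) without COMB replicate 2 (0.112%) and 1 (Nfkbiz) without COMB replicate 3 (0.04%). It was 2 (Rel and Nfkbiz) when only these groups were fitted (0.245%).

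**Figure D2:**
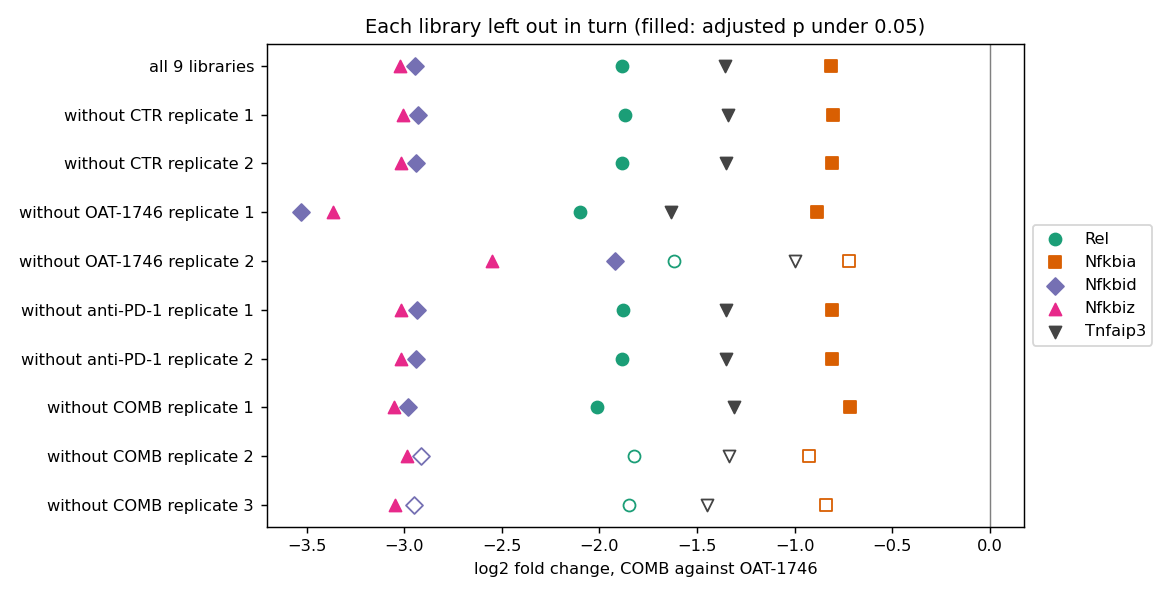
Log2 fold change of COMB against OAT-1746 for the 5 called genes (symbols), with all 9 libraries and with each library left out in turn; filled symbols have an adjusted p under 0.05. All values stay below 0, from -3.53 for Nfkbid without OAT-1746 replicate 1 to -0.72 for Nfkbia without COMB replicate 1, and Nfkbiz is filled in every row.

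In the other comparisons against the single treatments and CTR, 0 of the 10 members were called in edgeR, and 0% of all tested genes were. For OAT-1746 against CTR, 5 members were higher in OAT-1746 at an unadjusted p under 0.05 (Rel, Nfkbia, Nfkbid, Nfkbiz and Tnfaip3; 16.1% of tested genes) and 1 lower (Nfkb2; 16.2%), with adjusted p-values from 0.0610 to 0.114. DESeq2 called the same 5 higher, beside 9.11% of the genes it tested, and limma voom with sample quality weights called 0. The inhibitors thus split in this comparison, with Nfkbib at -0.43 and Nfkbie at -0.30 on the log2 scale and the others between 0.92 and 1.69. Without OAT-1746 replicate 2, Nfkbid was at 0.69 in place of 1.69, Nfkbiz at 1.22 in place of 1.67, Rel at 0.80 in place of 1.04, Tnfaip3 at 0.58 in place of 0.92 and Nfkbia at 0.89 in place of 0.96. Nfkb2, Nfkbib and Nfkbie were then at -0.29, -0.09 and 0.05, in place of -0.62, -0.43 and -0.30. Nfkb1 and Relb were at 0.21 and -0.38 with all libraries and at 0.19 and -0.20 without this one. Without OAT-1746 replicate 1, 8 members (5 higher, and Nfkb2, Nfkbib and Nfkbie lower) and 28.2% of the tested genes were called, and without COMB replicate 1, a library of neither group, 2 members (Nfkbia and Nfkbiz) and 2.23% of the tested genes were.

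For anti-PD-1 against CTR, 1 member had an unadjusted p under 0.05 (Nfkbia, log2 fold change 0.55, standard error 0.20; 3.18% of tested genes were higher by this rule), and neither DESeq2 nor limma voom called any. The anti-PD-1 replicates themselves differed for Rel, Nfkbid, Nfkbiz and Tnfaip3, with replicate 2 above and replicate 1 below both CTR libraries for these 4 genes except Nfkbid, for which replicate 1 lay between them. For COMB against CTR, 3 members were lower at an unadjusted p under 0.05 (Rel, Nfkbid and Nfkbiz; 3.37% of tested genes), with adjusted p-values from 0.631 to 0.729 in edgeR. DESeq2 called Nfkbiz alone, beside 0.128% of the genes it tested lower, as did edgeR when only these groups were fitted (0.0412% of the tested genes), and limma voom called no member.

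For COMB against anti-PD-1, which asks what the inhibitor adds to the antibody, 5 members were lower in COMB at an unadjusted p under 0.05 (Nfkb1, Rel, Nfkbid, Nfkbiz and Tnfaip3; 5.26% of tested genes). In 8 of 10 members, all but Relb and Nfkbib, each COMB library lay below both anti-PD-1 libraries, as in 16.4% of the tested genes. The log2 fold changes ran from -1.61 for Nfkbiz (standard error 0.26, adjusted p = 0.336 in edgeR) and -1.47 for Nfkbid to 0.01 for Relb. DESeq2 and limma voom each called 1 member lower (Nfkbiz), beside 0.369% and 0.271% of the genes they tested. Without OAT-1746 replicate 2, a library of neither group, edgeR called 2 members and 0.319% of the tested genes (Nfkbiz, adjusted p = 0.0292, and Nfkbid, adjusted p = 0.0361), and it called the same 2 and 0.405% of the tested genes without OAT-1746 replicate 1.

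**Figure D3:**
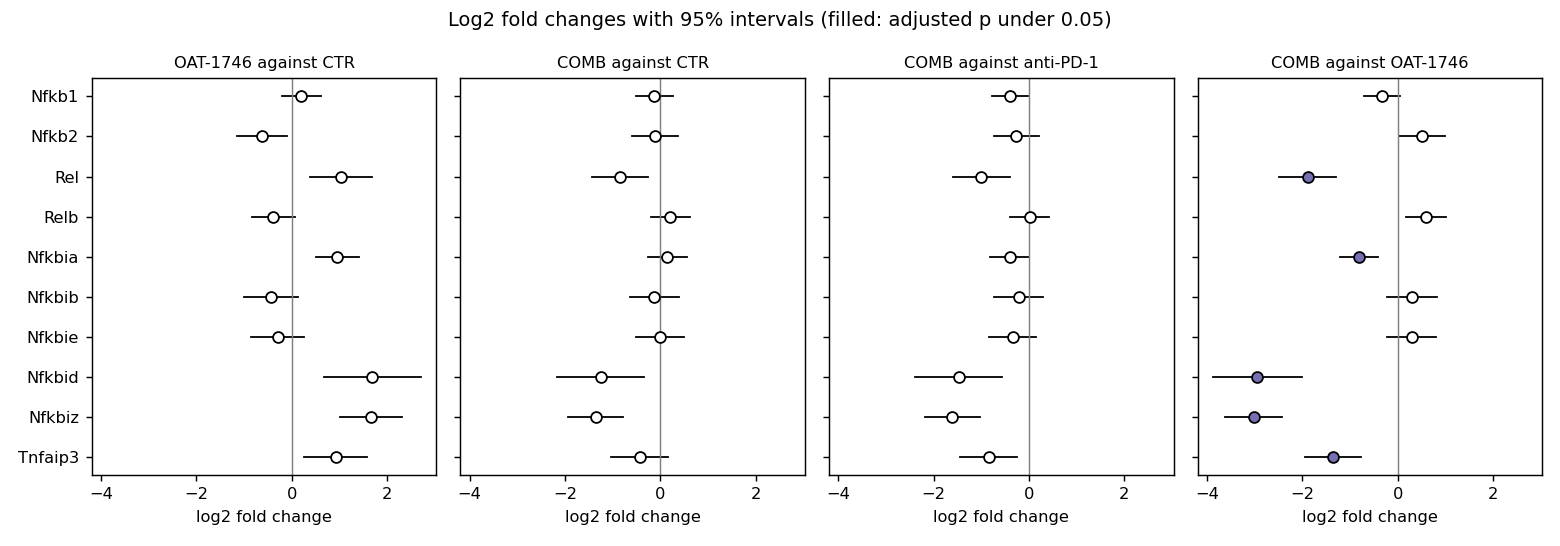
Log2 fold changes of the 10 members in 4 comparisons, with intervals of 95% coverage from edgeR's quasi-likelihood fit; filled points have an adjusted p under 0.05. Rel, Nfkbia, Nfkbid, Nfkbiz and Tnfaip3 lie to the right of 0 for OAT-1746 against CTR and are filled on the left for COMB against OAT-1746, which share the OAT-1746 libraries.

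The interaction asks whether OAT-1746 acts differently when the antibody is given: it subtracts the OAT-1746 against CTR value from that of COMB against anti-PD-1. For Nfkbiz these effects were -1.61 and 1.67 on the log2 scale, and the difference was -3.27 (standard error 0.39, adjusted p = 0.0289 in edgeR). It was the only member called, 1 of 10 beside 0.351% of the tested genes called lower. It was -2.80 (adjusted p = 0.0163) and still called without OAT-1746 replicate 2. The call was lost (0 members) without CTR replicate 1, CTR replicate 2, anti-PD-1 replicate 2, COMB replicate 2 or COMB replicate 3, when 0 of all tested genes were called, and the count was 2 without anti-PD-1 replicate 1 (0.271% of the tested genes), 4 without COMB replicate 1 (3.4%) and 5 without OAT-1746 replicate 1 (21.3%). At an unadjusted p under 0.05, 6 members were lower by this measure (14.4% of tested genes), namely Nfkb1 and the 5 genes called between COMB and OAT-1746. DESeq2 called the latter 5, beside 5.22% of the genes it tested lower. The interaction values of Nfkb1, Rel, Nfkbid, Nfkbia and Tnfaip3 were -0.61, -2.04, -3.17, -1.36 and -1.76 (adjusted p from 0.0662 to 0.167 in edgeR), while those of the remaining 4 lay between -0.05 and 0.40. With OAT-1746 replicate 2 left out, these 5 values were -0.57, -1.76, -2.14, -1.27 and -1.39, and those of the remaining 4 lay between -0.36 and 0.24.

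Subunits were set against inhibitors within each library as the mean log2 CPM of the 6 inhibitors minus that of the 4 subunits, a description with no test. This difference was 0.50 and 0.61 in the CTR libraries, 0.99 and 1.40 in OAT-1746, 0.62 and 0.70 in anti-PD-1 and 0.13, 0.34 and 0.34 in COMB. The COMB libraries had the lowest values and the OAT-1746 libraries the highest, and CTR lay just below anti-PD-1, without overlap between groups. The group means were 0.56 ± 0.08 (SD, n = 2), 1.20 ± 0.29 (SD, n = 2), 0.66 ± 0.06 (SD, n = 2) and 0.27 ± 0.12 (SD, n = 3) in the same order. The low place of COMB rested on the nuclear IκB genes. Without Nfkbid and Nfkbiz the means were 0.80 ± 0.15, 1.01 ± 0.03, 0.95 ± 0.05 and 0.91 ± 0.20, and the COMB libraries (0.68, 1.04 and 1.01) spanned those of the other groups, which kept their order without overlap. As a log2 ratio of summed CPM per kb, in which Nfkbia weighs most, the means were 2.79, 3.84, 3.06 and 2.80, so that OAT-1746 remained highest while COMB was no longer below CTR.

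**Figure D4:**
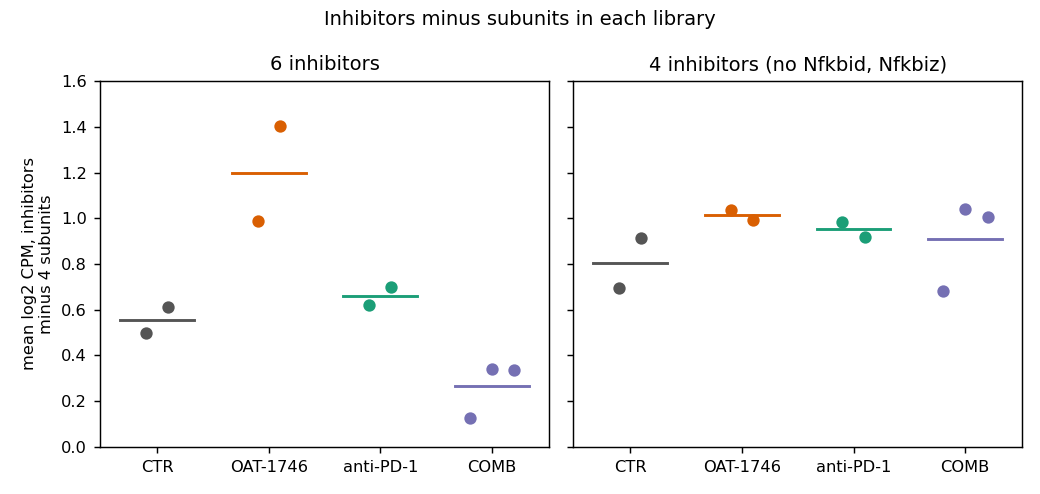
Mean log2 CPM of the inhibitors minus that of the 4 subunits in each library (points) with group means (lines), for all 6 inhibitors (left) and for the 4 without Nfkbid and Nfkbiz (right). On the left OAT-1746 is highest and COMB lowest, and on the right the means lie between 0.80 and 1.01.

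Of the 10 members, 8 fell into 2 sets that varied alike over the 9 libraries. Among Rel, Nfkbid, Nfkbiz and Tnfaip3, Pearson's r of log2 CPM was 0.946 to 0.977 over the 9 libraries and 0.910 to 0.976 without OAT-1746 replicate 2. Among Nfkb2, Relb, Nfkbib and Nfkbie it was 0.777 to 0.943, and 0.455 to 0.818 without that library. Between these sets r was -0.782 to -0.275, and -0.613 to 0.640 without it, so that the opposition of the sets was not seen for all pairs in the remaining 8 libraries. Nfkbia and Nfkb1 belonged to neither set as drawn over the 9 libraries. With Rel, Nfkbid, Nfkbiz and Tnfaip3, Nfkbia had r of 0.659 to 0.764 over 9 libraries and 0.461 to 0.613 over 8, and Nfkb1 0.687 to 0.755 and 0.684 to 0.767. These values describe libraries that share their group differences and carry no p.

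The tested genes most like each member over the 9 libraries were named by their r. For Nfkbiz these were Egr1 (r = 0.995) and Jun (r = 0.988), both immediate early transcription factors, and Zbtb11 (r = 0.985). In the 8 libraries without OAT-1746 replicate 2, the r of Nfkbiz with Egr1 was 0.995. Egr1 had 767 and 851 CPM in CTR, 2591 and 3730.0 in OAT-1746, 655 and 1117 in anti-PD-1 and 224, 231 and 256 in COMB, the same order of groups as Nfkbiz. For Rel they were Zbtb11 (r = 0.994), Kdm6b (r = 0.992), which encodes a histone demethylase, and Tob2 (r = 0.988), for Nfkbid Fbrs (r = 0.984), Tob2 (r = 0.984) and Tent4b (r = 0.984), and for Tnfaip3 Rybp (r = 0.985), Nlrp3 (r = 0.980), the inflammasome sensor, and Csrnp1 (r = 0.979). Nfkbia had lower values, with Phf23 (r = 0.969), Des (r = 0.952) and Ttc4 (r = 0.941). Des was near the floor, with 3 to 33 counts (0.22 to 1.89 CPM) in a library, so its r rests on few reads. The first of Nfkb2 was Arpc1b (r = 0.994), of Relb Eif2b4 (r = 0.985), of Nfkbib Dbnl (r = 0.987), of Nfkbie Sike1 (r = 0.966) and of Nfkb1 Prr14l (r = 0.973).

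For the called members, the 250 bases before their starts are shown where no annotated exon covers them, read from the RefSeq table of GRCm38.p6, 5′ to 3′ on the gene's strand. The table held 12 starts of 7 of the 10 members, 7 of them for 4 of the called genes (Rel, Nfkbia, Nfkbid and Tnfaip3), and lacked Nfkb1, Relb and Nfkbiz. Shown are the start of Rel (chr11:23770971-23771219, minus strand) and of Nfkbia (chr12:55492648-55492897, minus strand), the second of 3 starts of Nfkbid (chr7:30422156-30422405, plus strand) and the upstream of 2 listed starts of Tnfaip3 (chr10:19015411-19015547, minus strand). The stretches of Nfkbid and Tnfaip3 lie inside the annotated genes, downstream of another annotated start. Capitals mark matches to the κB motif on either strand.
Rel: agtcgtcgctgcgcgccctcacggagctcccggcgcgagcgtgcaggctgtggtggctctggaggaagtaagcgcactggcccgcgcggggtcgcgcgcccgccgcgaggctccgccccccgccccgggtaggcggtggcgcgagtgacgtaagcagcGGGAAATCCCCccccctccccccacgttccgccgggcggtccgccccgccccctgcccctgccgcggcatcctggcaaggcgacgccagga
Nfkbia: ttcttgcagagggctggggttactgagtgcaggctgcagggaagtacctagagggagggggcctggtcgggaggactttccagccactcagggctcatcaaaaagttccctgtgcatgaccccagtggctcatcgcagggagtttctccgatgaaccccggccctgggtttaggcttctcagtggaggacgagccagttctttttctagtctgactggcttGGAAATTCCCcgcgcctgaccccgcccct
Nfkbid: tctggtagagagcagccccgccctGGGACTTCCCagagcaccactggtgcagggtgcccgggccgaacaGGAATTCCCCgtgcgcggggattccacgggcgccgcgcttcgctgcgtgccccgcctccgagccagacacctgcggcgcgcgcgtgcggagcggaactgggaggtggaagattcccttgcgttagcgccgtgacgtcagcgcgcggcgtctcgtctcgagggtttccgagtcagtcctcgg
Tnfaip3: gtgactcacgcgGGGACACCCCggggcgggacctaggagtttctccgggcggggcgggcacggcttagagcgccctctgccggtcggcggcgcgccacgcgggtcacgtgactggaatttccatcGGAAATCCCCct

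The κB motif of 10 bases was found in 7.25% of the 32851 windows of 250 bases in the table. Rel had 2 overlapping matches (bases 92 to 83 and 91 to 82 before the start) and Nfkbia 1 (bases 29 to 20). The second start of Nfkbid had 2 (bases 226 to 217 and 181 to 172) and its other starts 0, and the upstream start of Tnfaip3 had 2 (bases 125 to 116 and 12 to 3) and its other start 0. Matches were not limited to called genes, as Nfkb2 and Nfkbie, which were not called, also had them and Nfkbib had 0. The AP-1 motif TGANTCA, in 6.75% of windows, was found for Tnfaip3 (bases 136 to 130), Nfkbie and Nfkb2. The CRE motif TGACGTCA (1.55% of windows) was found for Nfkbid at bases 51 to 44, where it holds its core TGACGT 2 times, once on each strand, and the core alone (6.47% of windows) for Rel (bases 105 to 100) and for Tnfaip3 (bases 168 to 163, outside the stretch shown). The CArG box (1.47% of windows) had 0 matches in the members. The motifs were searched on both strands, and a match is a description of the letters only.

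Other genes of the pathway were taken from lists of 108 genes, of which 104 were tested. Between COMB and OAT-1746, 17 of them were called lower and 3 higher, beside 8.94% of all tested genes lower and 15.8% in either direction. The median log2 fold change of the pathway genes was -0.02. Of the other subunits and IκB family genes 0 of 4 were called. Rela, the most abundant of them, had 131 and 148 CPM in CTR, 167 and 176 in OAT-1746, 168 and 152 in anti-PD-1 and 136, 132 and 141 in COMB, a narrow range beside that of Rel, and Bcl3, a nuclear IκB protein, had 16.9 CPM in OAT-1746 replicate 2 and 45.9 to 76.4 in the other libraries. Of 18 IκB kinase subunits and upstream kinases 2 were called lower: Map3k8, a kinase activated downstream of Toll-like receptors (-1.72, adjusted p = 0.00322 in edgeR), and Tab2 (-0.60, adjusted p = 0.0440). Map3k8 had 26.7 and 27.3 CPM in CTR, 48.4 and 60.3 in OAT-1746, 33.4 and 29.9 in anti-PD-1 and 17.6, 15.7 and 16.2 in COMB, with OAT-1746 highest and COMB lowest as for Nfkbiz, and it was also called without OAT-1746 replicate 2. Of 32 receptors and adaptors, 4 were called lower, among them the Toll-like receptor adaptors Ticam1 (-0.99) and Ticam2 (-0.67), and 1 higher (Tradd, 0.82, an adaptor of the TNF receptor).

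Of 16 ubiquitin editors and partners of A20, 3 were called lower, Zc3h12a (an RNase that degrades inflammatory mRNAs, -1.53), Zfand5 (-1.33) and Otud7b (a deubiquitinase, -0.86), and 1 higher (Otulin). The inflammatory target genes did not move one way. Of 34 tested, 8 were called lower, with the cytokine Tnf (-2.02) and the chemokine Ccl3 (-2.26) among the largest, and 1 higher, the survival gene Bcl2a1b (2.171), and the median was -0.01. Bcl2a1b belongs to a family of near-identical genes, so its count is uncertain. Tnf had 123 and 151 CPM in CTR, 176 and 167 in OAT-1746, 94.98 and 150.0 in anti-PD-1 and 46.5, 43.2 and 36.9 in COMB. All COMB libraries were below the other 6, and the OAT-1746 libraries were above the others. Without OAT-1746 replicate 2, 1 of the kinases (Map3k8), 1 of the target genes (Tnf) and 0 genes of the other pathway lists were called. The values of COMB against OAT-1746 were then -1.54 for Map3k8, -0.44 for Tab2, -0.91 for Ticam1, -0.55 for Ticam2, 0.75 for Tradd, -1.25 for Zc3h12a, -0.87 for Zfand5, -0.69 for Otud7b, -2.05 for Tnf, -1.49 for Ccl3 and 1.94 for Bcl2a1b.

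For OAT-1746 against CTR, 0 of the 104 pathway genes were called in edgeR, as for the members. At an unadjusted p under 0.05, 14 of them were higher and 14 lower, beside 16.1% and 16.2% of tested genes. Those with the smallest p on each list lay on both sides of 0: Map3k8 (1.01), Irak4 (-0.57) and Irak3 (-1.05) among the kinases, Ticam1 (0.83), Traf5 (0.86) and Tlr1 (-0.71) among the receptors and adaptors, Zfand5 (1.43), Otud7b (0.87) and Tnip1, a partner of A20 (-0.68), among the ubiquitin editors, and Bcl2a1b (-1.25), Nlrp3 (0.92) and the chemokine Ccl2 (-0.91) among the targets. The values of Map3k8, Ticam1, Zfand5 and Otud7b were thus above 0 here and below 0 for COMB against OAT-1746, as those of the 5 called members were, and these comparisons share the OAT-1746 libraries. With OAT-1746 replicate 2 left out, the values against CTR were 0.86 for Map3k8, -0.47 for Irak4, -0.61 for Irak3, 0.77 for Ticam1, 0.56 for Traf5, -0.64 for Tlr1, 0.998 for Zfand5, 0.73 for Otud7b, -0.44 for Tnip1, -1.002 for Bcl2a1b, 0.66 for Nlrp3 and -0.46 for Ccl2, with 0 called.

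**Figure D5:**
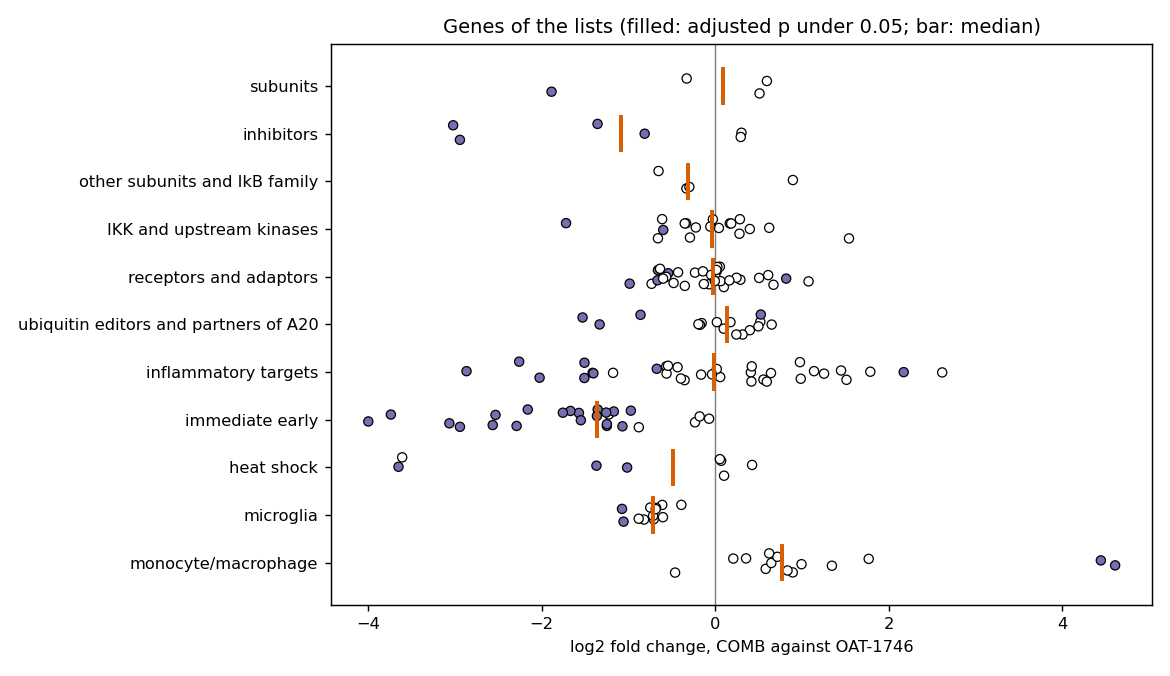
Log2 fold change of COMB against OAT-1746 for each tested gene of the members' groups and of the pathway, state and cell type lists (points; filled at an adjusted p under 0.05), with the median of each list (bar). The 4 called inhibitors, Rel and all 25 immediate early genes are below 0.

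Immediate early genes, which cells switch on within minutes of a stimulus and which also rise during tissue dissociation, were lower in COMB than in OAT-1746, as were the 5 called members, while Nfkb2, Relb, Nfkbib and Nfkbie had values above 0. Of 25 such genes, 20 were called lower in COMB than in OAT-1746 and 0 higher, with a median of -1.36 over the list and 0.00 over all tested genes. Their summed level was 15272 and 14335 CPM in CTR, 21226 and 30222 in OAT-1746, 14208 and 18539 in anti-PD-1 and 8188, 9369 and 9489 in COMB. As for Rel, Nfkbid and Nfkbiz, COMB lay below and OAT-1746 above all other libraries. The most abundant was Junb, Jun or Dusp1, depending on the library. Fosb (-4.00), Egr1 (-3.74) and Egr3 (-3.06) had the largest called changes. Without OAT-1746 replicate 2, 3 were called (Jun, Egr1 and Ier2), the median was -1.22, and Fosb was at -2.67, Egr1 at -3.44 and Egr3 at -1.95. Of 8 heat shock genes, 3 were called lower, Hspa1a (-3.65), Dnajb1 (-1.37) and Bag3 (-1.02), and 0 without that library (-1.73, -0.89 and -0.75). Their summed level of 2233 to 4063 CPM, most of it Hspa8, did not follow the members. For OAT-1746 against CTR 0 genes of either list were called, and the median of the immediate early genes was 0.74, with Egr1 at 1.97, Jun at 1.44 and Ier2 at 0.88, while Hspa1a was at 2.22, Dnajb1 at 1.34 and Bag3 at 0.67. With OAT-1746 replicate 2 left out, this median was 0.35, with Egr1 at 1.69, Jun at 1.10, Ier2 at 0.85, Hspa1a at 0.33, Dnajb1 at 0.88 and Bag3 at 0.43, and 0 called. The part of these genes in the members' result was not tested.

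The immediate early genes were also described in the other comparisons of COMB, in which 0 members were called except Nfkbiz in the interaction. For COMB against anti-PD-1, 0 of the 25 were called, 22 were lower at an unadjusted p under 0.05 and the median was -1.03. For COMB against CTR, 0 were called, 16 were lower at an unadjusted p under 0.05 and the median was -0.81. In the interaction, 6 were called lower beside Nfkbiz (Jun, Jund, Egr1, Ier2, Ier5 and Atf3), with a median of -1.66. With OAT-1746 replicate 2 left out, 7 were called lower in the interaction (these 6 and Klf2), with a median of -1.51, 7 for COMB against anti-PD-1 (median -0.996) and 0 for COMB against CTR (median -0.78).

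Cell type markers also differed. The 12 microglia markers summed to 14967 and 23848 CPM in CTR, 31803 and 39751 in OAT-1746, 22569.8 and 18336 in anti-PD-1 and 27584, 20549 and 19375 in COMB. All 12 had a negative log2 fold change between COMB and OAT-1746 and 2 were called (P2ry12 and Sall1), with a median of -0.71. The 14 monocyte and macrophage markers summed to 14838 and 13496 CPM in CTR, 10241 and 2100.4 in OAT-1746, 13949 and 16160.5 in anti-PD-1 and 10903, 13992 and 14573 in COMB, with Tgfbi or Lyz2 the most abundant, depending on the library. OAT-1746 replicate 2 was far below the other 8 libraries in these and highest in the microglia markers. Without this library 0 markers of either list were called, and the medians were -0.55 and 0.10. Against CTR, all 12 microglia markers were above 0 in OAT-1746 (median 0.95) and all 14 monocyte and macrophage markers below 0 (median -1.06). These values include OAT-1746 replicate 2, and 0 markers of either list were called. The part of cell composition in the members' result was not tested.

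Other cell types that the gate could hold had lower sums. Over the 9 libraries, 12 neutrophil markers summed to 332 to 761 CPM (Csf3r the most abundant), 10 dendritic cell markers to 283 to 582 CPM (Siglech the most abundant), 8 markers of border-associated macrophages to 618 to 887 CPM (F13a1, Mrc1 or Ms4a7 the most abundant) and 12 NK cell markers to 21.7 to 278 CPM (Gzma the most abundant). Of these, Csf3r was called lower and F13a1 and Klrc2 higher in COMB than in OAT-1746. Csf3r had 243 to 475 CPM, most of the neutrophil sum in every library. Like the microglia sum, its level was highest in OAT-1746 replicate 2. The 8 tested of 12 T cell markers summed to 12.1 to 30.2 CPM (Cd4 or Lck the most abundant), and the 4 tested of 8 B cell markers to 10.99 to 26.3 CPM (Cd79b the most abundant), with 0 called. Cd3e, Trbc1, Trbc2 and Cd27 of the T cell list were too low to be tested, and Cd3d had 0 counts in CTR replicate 2. Oligodendrocyte markers (7) summed to 225 to 401 CPM, astrocyte markers (7) to 64.9 to 206 CPM (Slc1a3 the most abundant) and endothelial markers (7) to 127 to 203 CPM (Flt1, Kdr or Pecam1 the most abundant), and of these 2 were called, Gfap lower and Aldh1l1 higher in COMB. With OAT-1746 replicate 2 left out, 0 of the markers in these lists were called. The sum of the NK cell markers was highest in the anti-PD-1 libraries (278 and 149 CPM), unlike that of any called member, and Siglech is also a microglia marker.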

How the data were processed

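The deposited values are unnormalized counts for each gene and library, 9 libraries in all. According to their methods, the authors used Trimmomatic 0.36 for trimming and STAR 2.6.1b for alignment to mm10, marked duplicates with Picard 2.17.1 and counted with HTSeq-count 0.11.1 in reverse stranded mode at a mapping quality of at least 10. In R 4.3.3, 53620 of 53801 genes matched GENCODE mouse release M21 (181 did not), and 12538 of 21890 protein-coding genes passed filterByExpr (minimum count 10). edgeR 4.0.16 fitted the 4 group means by quasi-likelihood with TMM factors and Benjamini-Hochberg adjustment over all tested genes (common biological coefficient of variation 0.214, prior degrees of freedom 4.15). The fit was tested on simulated data. Alternatives were DESeq2 1.42.0, limma 3.58.1 voom, other scalings, filters and gene sets, fits of the compared groups, a replicate block and leaving out each library. Log2 CPM used a prior count of 2. All 10 members are named. From each pathway or state list up to 3 genes of at least 5 CPM were named for COMB against OAT-1746 and for OAT-1746 against CTR, those with the largest called change or, with none called, the smallest unadjusted p, and genes named beyond this were chosen after their values were seen. For each member the 3 genes with the highest r were taken. Members and lists were chosen with earlier results of these data known.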

Additional observations from a re-analysis of the deposited data

Results flagged for a closer look

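Nfkbiz was called for a difference between the effects of OAT-1746 with and without the antibody, of -3.27 on the log2 scale (adjusted p = 0.0289 by edgeR quasi-likelihood). All 3 COMB libraries lay below both anti-PD-1 libraries, and both OAT-1746 libraries lay above both CTR libraries. The call depended on single libraries: it was lost without any of 5 of the 9 (adjusted p from 0.0994 to 0.218) and with the replicate block (adjusted p = 0.207, edgeR). It was not particular to Nfkbiz, as 45 genes were called in this test, Jun and Egr1 among them, and DESeq2 called 5 members.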

How the results depend on the processing

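Between COMB and OAT-1746, the count of members called (5) became 2 in a fit of these groups alone and 0 with the replicate block, and leaving out 1 library at a time gave 1 to 9. The fit of 2 groups has fewer libraries. Only COMB has a replicate 3, so the block gives that library a term of its own and takes it out of the comparison. With the block, Rel, Nfkbia, Nfkbid, Nfkbiz and Tnfaip3 were at -1.84, -0.85, -2.84, -3.00 and -1.42, with larger standard errors. Without it they were at -1.89, -0.81, -2.94, -3.02 and -1.36. Causes beyond these features of the fits were not tested. The count was 5 or 6 under the other alternatives. For OAT-1746 against CTR (0) it was 5 with DESeq2, 3 without the low-count filter and 0 to 8 over the left-out libraries. For COMB against CTR (0) it was 1 with DESeq2 and 1 in a fit of these groups alone. For COMB against anti-PD-1 (0) it was 1 with DESeq2, 1 with limma voom and 0 to 2 over the left-out libraries. For the interaction (1) it was 5 with DESeq2, 5 without the low-count filter, 4 with limma voom, 0 with the block and 0 to 5 over the left-out libraries. For anti-PD-1 against CTR it was 0 in every run.

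The count of all genes called between COMB and OAT-1746 (1979) was 3062 with DESeq2, 30 with these groups alone, 2 with the block and 5 to 4033 over the left-out libraries. For OAT-1746 against CTR (0) it was 1996 with DESeq2, 587 without the filter and 0 to 3617 over the left-out libraries. For anti-PD-1 against CTR (0) it was 14 with DESeq2. For COMB against CTR (0) it was 35 with DESeq2, 5 with these groups alone, and 2 without the filter or with limma voom. For COMB against anti-PD-1 (0) it was 47 with DESeq2, 35 with limma voom, 2 without the filter or with these groups alone, and 0 to 52 over the left-out libraries. For the interaction (45) it was 1025 with DESeq2, 428 with limma voom, 146 without the filter, 24 with library size only, 18 over all gene types, 0 with the block and 0 to 2734 over the left-out libraries.

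The titles give replicate numbers, but nothing says that they pair libraries, and the deviations of same-numbered libraries from their group means had r from -0.349 to 0.0999. The block gave 0 members called in each comparison.

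Inhibitors minus subunits had means without Nfkbid and Nfkbiz of 0.80 in CTR, 0.95 in anti-PD-1 and 0.91 in COMB, and as a ratio of summed CPM per kb 3.84 (OAT-1746), 3.06 (anti-PD-1), 2.80 (COMB) and 2.79 (CTR). With a library of the group left out, the mean was 0.50 to 0.61 for CTR, 0.99 to 1.40 for OAT-1746, 0.62 to 0.70 for anti-PD-1 and 0.23 to 0.34 for COMB.

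Log2 fold changes that changed sign were near 0 or rested on 1 library, and none of these was called with all libraries. Nfkbie in COMB against CTR (-0.00221) was 0.0172 with DESeq2, 0.0172 with its size factors, 0.0302 with library size only, 0.0232 without the filter, 0.0347 with at least 10 counts in every library, 0.0666 with limma voom, 0.000229 with these groups alone and -0.0836 to 0.10 over the left-out libraries. Relb in COMB against anti-PD-1 was -0.0374 with the block and -0.0893 to 0.16 over the left-out libraries, and Nfkbie in the interaction was 0.0689 with limma voom and -0.36 to 0.39. Over the left-out libraries, values were -0.73 to 0.0479 for Nfkbie in OAT-1746 against CTR. In anti-PD-1 against CTR they were -0.0147 to 0.19 for Nfkbib, -0.35 to 0.52 for Rel, -0.20 to 0.55 for Nfkbid, -0.00666 to 0.30 for Nfkb2, -0.13 to 0.56 for Nfkbiz and -0.0782 to 0.77 for Tnfaip3. In COMB against CTR they were -0.26 to 0.0241 for Nfkb1 and -0.20 to 0.0144 for Nfkb2, in COMB against OAT-1746 -0.00967 to 0.72 for Nfkbib and -0.0262 to 0.73 for Nfkbie, and in the interaction -0.0965 to 0.63 for Nfkbib. With 2 or 3 libraries a group and 1 library apart, the counts of calls changed with single libraries.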
